A study of Mus musculus with 8 samples.

Results

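The Smads are the proteins that carry signals of the transforming growth factor beta (TGF-beta) superfamily from the cell membrane to the nucleus. The mouse family has 8 members: Smad1, Smad2, Smad3, Smad4, Smad5, Smad6, Smad7 and Smad9. They were taken by gene symbol from the 56748 genes of the deposited table, where each symbol has 1 row, and all 8 were among the 16002 genes that passed the filter on low counts. Whole hearts of 2 genotypes were compared after transverse aortic constriction (TAC), a banding of the aortic arch that puts the left ventricle under pressure overload. CS7KO hearts came from mice whose Smad7 was deleted in cardiomyocytes by Cre recombinase driven by the alpha myosin heavy chain (aMHC) promoter. CRE hearts came from control mice with the same aMHC Cre. Both groups were mice of the strain labelled C56BL, aged 3 to 4 months, and both were examined 56 days after TAC. Every heart thus shared the Cre transgene and the banding, and no sham-operated or Cre-free heart is analysed here. Each group had 4 libraries, 1 per heart, with 2 hearts labelled male (replicates 1 and 2) and 2 labelled female (replicates 3 and 4 of CS7KO, replicates 3 and 5 of CRE). The sources used here do not say whether the CRE mice also carried a floxed Smad7 allele.

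Ligands of this superfamily bind pairs of type I and type II serine/threonine kinase receptors, and the type I receptor phosphorylates the receptor Smads. Smad2 and Smad3 are classically phosphorylated by TGF-beta and activin receptors, and Smad1, Smad5 and Smad9 (also called Smad8) by bone morphogenetic protein (BMP) receptors. The phosphorylated Smads bind the common partner Smad4, enter the nucleus and regulate genes such as Ccn2 on the TGF-beta side and Id1 and Id3 on the BMP side. Smad6 and Smad7 are inhibitory Smads whose genes are themselves induced by these signals, which closes a feedback loop. Smad6 acts mainly on BMP signalling, and Smad7 acts on both branches by occupying type I receptors and recruiting ubiquitin ligases of the Smurf type. In the pressure-overloaded heart the TGF-beta branch is best known for driving fibroblast activation and matrix deposition.

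In these hearts no Smad transcript differed between the genotypes at an adjusted p under 0.05. Smad6 and Smad9 were the members whose 4 CS7KO libraries all lay above the 4 CRE libraries, and the sequences around their start sites are shown for that reason. Both are RefSeq sequences on GRCm38.p6 and run 5′ to 3′ on the gene's strand, with 250 bases before the annotated start and 50 bases after it. The Smad6 sequence is chr9:64022010-64022309 on the minus strand and the Smad9 sequence is chr3:54755332-54755631 on the plus strand. Capitals mark GGCGCC, a GC-rich motif bound by Smads of the BMP branch.
Smad6: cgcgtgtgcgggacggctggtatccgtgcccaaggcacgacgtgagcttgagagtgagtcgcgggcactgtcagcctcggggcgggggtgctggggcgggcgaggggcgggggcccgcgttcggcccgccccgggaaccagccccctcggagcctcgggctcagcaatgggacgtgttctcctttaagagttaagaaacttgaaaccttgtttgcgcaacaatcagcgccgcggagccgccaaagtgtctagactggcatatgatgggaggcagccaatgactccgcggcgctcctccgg
Smad9: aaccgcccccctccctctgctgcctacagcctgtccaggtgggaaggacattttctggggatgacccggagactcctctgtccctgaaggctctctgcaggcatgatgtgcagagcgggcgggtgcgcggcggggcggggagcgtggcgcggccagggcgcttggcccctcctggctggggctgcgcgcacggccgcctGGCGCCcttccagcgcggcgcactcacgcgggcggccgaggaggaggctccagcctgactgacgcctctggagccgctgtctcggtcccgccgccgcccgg

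The Smad6 window held neither GGCGCC, which reads the same on both strands, nor CAGAC, the core of the Smad-binding element, which was searched on both strands and reads GTCTG on the other. The Smad9 window held 1 GGCGCC, at base -51 from the start, and no CAGAC. The 2 motifs share no run of letters that could be counted for both. Over all 32851 mouse promoter windows of this length, 11.87% held GGCGCC and 49.59% held CAGAC, so about as many windows lack CAGAC as hold it. Both windows were rich in G and C, at 66.3% for Smad6 and 73.7% for Smad9, against a median of 52.67% over all windows. The windows of Smad1 (65%), Smad3 (67.7%) and Smad5 (63% to 68%), whose levels overlapped between the groups, were rich in them too. GGCGCC also occurred in windows of Smad5. Neither trait is thus particular to Smad6 and Smad9.

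The libraries held between 16679724 and 40181492 counts in CS7KO hearts and between 16476420 and 29751644 in CRE hearts. The 37 mitochondrially encoded genes took 20.2% to 24.9% of the counts in CS7KO libraries, against 15.04%, 20.3%, 41.1% and 69.8% in CRE 1, 2, 3 and 5. CRE 1 and CRE 5 stood apart in another way. Of the genes with at least 10 counts in each of the other 7 libraries, 796 were at 0 in CRE 1 and 114 in CRE 5, against 0 or 1 in each of the other libraries. Smad3 in CRE 1 and Smad9 in CRE 5 belong to these genes, and their results are given with and without those libraries. Cardiomyocyte markers such as Myh6, Myh7 and Actc1 were abundant in every library. The atrial markers Myl7, Myl4 and Sln were nearly absent, at no more than 6.85 CPM (read counts scaled to a common library size) in any library and with Sln at 0 in 3 libraries, although the tissue is labelled as the whole heart. Some other genes of the atrial list were present. Nppa had 113 to 2717 CPM, and the highest value among the rest was 44.2 CPM. Overall 6 of 16002 genes, or 0.0375%, passed an adjusted p under 0.05 between the genotypes in edgeR's quasi-likelihood test, and 12.6% had an unadjusted p under 0.05. DESeq2 called 503 of the 12279 genes to which it gave an adjusted p, or 4.1%. The CS7KO libraries all lay above the CRE libraries for 6.24% of genes. Against those shares, 0 of the 8 Smads passed by edgeR or DESeq2, 1 (Smad6) had an unadjusted p under 0.05, and 2 (Smad6 and Smad9) had all CS7KO libraries above all CRE libraries.

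Smad7, the gene deleted in the CS7KO cardiomyocytes, was still transcribed in all CS7KO hearts. It had 19.8, 13.3, 27.8 and 12.3 CPM in CS7KO 1 to 4, against 17.6, 25.5, 25.2 and 45.4 CPM in CRE 1, 2, 3 and 5. The groups overlapped: CS7KO 3 was above every CRE library except CRE 5, and CS7KO 1 was above CRE 1. The means were 18.3 ± 7.14 CPM in CS7KO hearts and 28.4 ± 11.9 CPM in CRE hearts (SD, n = 4 each), a log2 fold change of -0.59 with an SE of 0.34 and an adjusted p of 0.509 (CS7KO over CRE, edgeR). The 95% interval of the fold change ran from 0.390 to 1.12, which holds both a loss of more than 50% of whole-heart Smad7 RNA and no loss. Without CRE 5, the library with the highest value, the log2 fold change was -0.33. By an exact permutation test over the 70 ways of dividing the libraries 4 and 4, two-sided, p was 0.200.

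The Smad7 count covers the whole gene in all cells of the heart. The sources used here do not name the exons that Cre removes, and RNA from the undeleted part, or from cells in which this promoter is silent, is counted too. In whole-tissue RNA, fewer cells of a type and less RNA per cell cannot be told apart. Endothelial cells are among the cells this Cre spares, and their markers ran in the same direction as Smad7. The 10 endothelial markers, Pecam1, Cdh5 and Kdr among them, summed to 671 to 1419 CPM in CS7KO libraries and to 1260 to 3362 CPM in CRE libraries, and 10 of 10 had the lower mean in CS7KO hearts. CRE 5 had the highest endothelial sum and the highest Smad7 value, and among the CS7KO libraries the order by endothelial sum (1419, 1402, 796 and 671 CPM in CS7KO 3, 1, 2 and 4) was also the order by Smad7. Among the CRE libraries the 2 orders differed: CRE 2 had the lowest endothelial sum (1260 CPM) with 25.5 CPM of Smad7, and CRE 1 had 1433 CPM with the lowest Smad7 value. The part of endothelial RNA in the Smad7 difference was not tested. Gm20544, a gene on the opposite strand that starts next to the Smad7 start without overlapping it in the table, had a log2 fold change of -2.01 (SE 0.54, adjusted p 0.291). Its highest count was 16.0% of the highest Smad7 count, and the sources used here do not say whether counting used strand.

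Smad6, the other inhibitory Smad, had the smallest p in the family, and its mean differed in the direction opposite to that of Smad7. It had 16.8, 20.2, 26.0 and 19.2 CPM in CS7KO 1 to 4, against 7.91, 10.6, 11.1 and 15.2 CPM in CRE 1, 2, 3 and 5. Every CS7KO library was above every CRE library, and the closest pair, CS7KO 1 and CRE 5, lay 16.8 against 15.2 CPM. The means were 20.5 ± 3.90 CPM in CS7KO hearts and 11.2 ± 3.03 CPM in CRE hearts (SD, n = 4 each), with a fitted fold change of 1.85 (log2 0.89, SE 0.26) and a 95% interval from 1.24 to 2.78. The unadjusted p was 0.00677, which ranked 368 among 16002 genes, and the adjusted p was 0.291. DESeq2 gave a log2 fold change of 0.91 and an adjusted p of 0.0514. The exact permutation p was 0.0286, two-sided, which is the smallest that 4 against 4 libraries can give, and 6.24% of all genes had such a complete separation in this direction. Smad6 is best known from endothelium and heart valves. The endothelial marker sum ran the other way, with a median of 1099 CPM in CS7KO libraries and 2130 CPM in CRE libraries. The part of endothelial RNA in the Smad6 values was not tested. Among the CRE libraries Smad6 ran in the order of the mitochondrial share of counts, and among the CS7KO libraries it did not. The part of that share was not tested either.

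**Figure D1:**
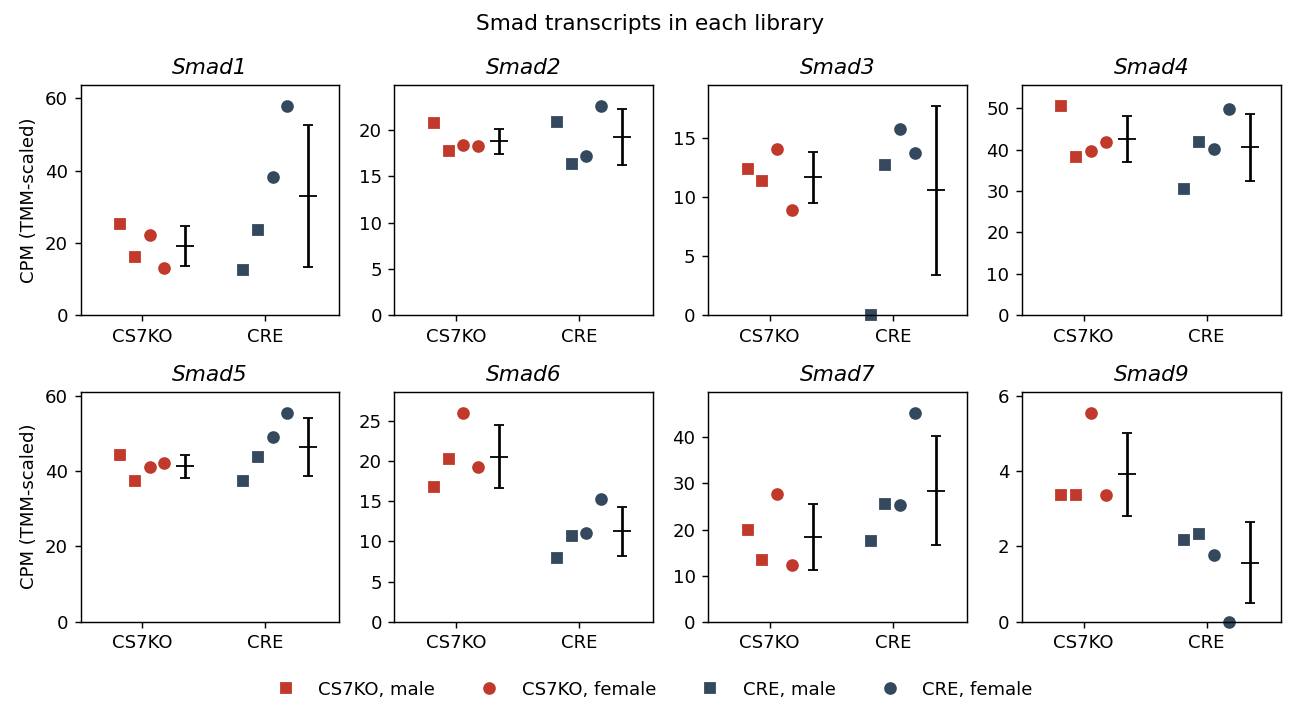
CPM (TMM-scaled read counts) of each Smad in every library, with CS7KO (red) left of CRE (dark), squares for hearts labelled male, circles for hearts labelled female, and bars for the mean ± SD of 4 libraries. The groups do not overlap for Smad6 and Smad9, Smad1 and Smad7 spread most among the CRE libraries, and single zeros are seen for Smad3 in CRE 1 and Smad9 in CRE 5.

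Set against each other within a library, the 2 inhibitory Smads stood in opposite order in the genotypes. Per kilobase of gene length, the level of Smad6 over that of Smad7 was 1.19, 2.13, 1.32 and 2.20 in CS7KO 1 to 4, against 0.633, 0.587, 0.619 and 0.474 in CRE 1, 2, 3 and 5. Smad6 was thus the more abundant of the pair in 4 of 4 CS7KO libraries and the less abundant in 4 of 4 CRE libraries. The ratio averaged 1.71 ± 0.529 in CS7KO hearts and 0.578 ± 0.0721 in CRE hearts (SD, n = 4 each), a difference of 1.52 on the log2 scale or 2.87-fold. A ratio within a library does not depend on how libraries are scaled, and over the alternatives tried the log2 difference lay between 1.38 and 1.68. In raw counts, without the gene lengths, the ratio was 0.847, 1.51, 0.934 and 1.56 in CS7KO libraries, against 0.449, 0.416, 0.439 and 0.336 in CRE libraries. The groups stayed apart on that scale too, but which of the 2 genes was on top depended on the length correction in CS7KO 1 and CS7KO 3. The 4 CRE ratios lay within a narrow band although Smad7 itself ranged between 17.6 and 45.4 CPM among them. The denominator is Smad7, the gene deleted in the CS7KO cardiomyocytes, so the ratio is not independent of the design. The ratio was chosen with earlier results of these data known, and no p is given for it.

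The combined level of inhibitory over receptor Smads did not separate the genotypes. Smad6 plus Smad7, per kilobase and divided by the sum of Smad1, Smad2, Smad3, Smad5 and Smad9, was 0.630, 0.753, 0.965 and 0.721 in CS7KO libraries, against 0.651, 0.628, 0.506 and 0.678 in CRE libraries. The means were 0.767 ± 0.142 in CS7KO hearts and 0.616 ± 0.0758 in CRE hearts, and the lowest CS7KO value fell inside the CRE range. In this sum the higher Smad6 and the lower Smad7 values of the CS7KO hearts run against each other.

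**Figure D2:**
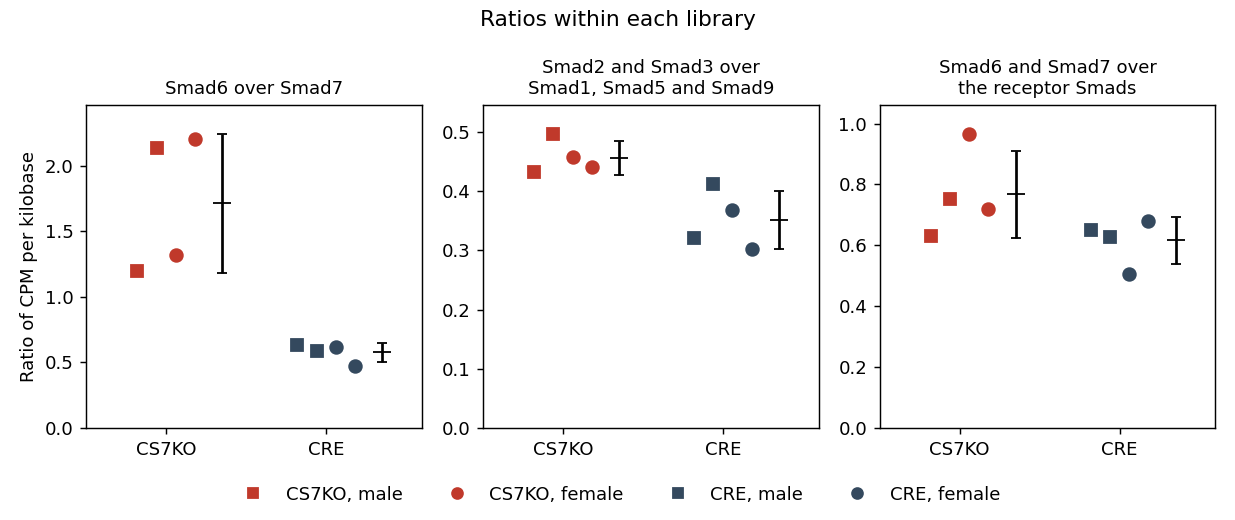
Within-library ratios of levels per kilobase, on a linear axis, for Smad6 over Smad7, for the TGF-beta-type over the BMP-type receptor Smads, and for inhibitory over receptor Smads, with CS7KO (red) left of CRE (dark) and bars for the mean ± SD of 4 libraries. The Smad6 over Smad7 ratio lies between 1.19 and 2.20 in CS7KO hearts and between 0.474 and 0.633 in CRE hearts, while the inhibitory over receptor ratio overlaps between the groups.

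Among the receptor Smads of the BMP branch, Smad5 was the most abundant and the steadiest. Smad5 had 44.4, 37.2, 41.2 and 42.1 CPM in CS7KO 1 to 4, against 37.3, 43.6, 49.0 and 55.5 CPM in CRE 1, 2, 3 and 5. The groups overlapped, with means of 41.2 ± 2.97 CPM in CS7KO hearts and 46.4 ± 7.76 CPM in CRE hearts and a log2 fold change of -0.16 (SE 0.22, adjusted p 0.827). The 95% interval of the fold change, 0.636 to 1.26, is among the narrower ones in the family. With library totals as the only scaling the sign turned (log2 0.14).

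Smad1, its closest relative in the family, had the widest spread of the 3 in CPM, most of it on the CRE side. It had 25.3, 16.0, 22.2 and 13.1 CPM in CS7KO 1 to 4, against 12.4, 23.6, 38.3 and 57.9 CPM in CRE 1, 2, 3 and 5. The coefficient of variation was 29.2% in CS7KO hearts and 59.6% in CRE hearts, and CRE 1 had the lowest value of all 8 libraries and CRE 5 the highest. The means of 19.1 ± 5.60 CPM in CS7KO hearts and 33.1 ± 19.7 CPM in CRE hearts did not differ beyond that spread (log2 fold change -0.62, SE 0.43, adjusted p 0.586). In the CRE libraries the order of Smad1 was also the order of the mitochondrial share of counts, from 15.04% in CRE 1 to 69.8% in CRE 5. Smad5 and Smad6 had this order there too. In the CS7KO libraries none of these Smads followed the share, which was 20.26%, 22.3%, 20.21% and 24.9% in CS7KO 1 to 4. The libraries with the 2 higher shares had the 2 lower Smad1 values. The part of that share in the Smad1, Smad5 and Smad6 values was not tested. Without CRE 3 and CRE 5, the 2 libraries of highest mitochondrial share, the Smad1 log2 fold change was 0.15.

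Smad9 was the rarest Smad in these hearts and was higher in all CS7KO libraries. It had 3.37, 3.37, 5.56 and 3.36 CPM in CS7KO 1 to 4, against 2.16, 2.34, 1.77 and 0 CPM in CRE 1, 2, 3 and 5. These values rest on 80, 79, 259 and 60 counts in CS7KO libraries and on 49, 58, 50 and 0 counts in CRE libraries. The groups did not overlap, and CS7KO 3 stood above the other 3 CS7KO libraries, which were nearly equal. The means were 3.91 ± 1.09 CPM in CS7KO hearts and 1.57 ± 1.07 CPM in CRE hearts (SD, n = 4 each), with a fitted fold change of 2.62 (log2 1.39, SE 0.84, adjusted p 0.532). The exact permutation p was 0.0286, the smallest that 4 against 4 libraries can give. It restates that the groups did not overlap, as 6.24% of all genes did not in this direction. CRE 5, with its smaller effective depth, could have missed up to 0.363 CPM (3 counts), which is below the 1.77 CPM of the lowest other CRE library. Without CRE 5 the CRE mean was 2.09 ± 0.292 CPM (n = 3) and the log2 fold change 0.90 (adjusted p 0.725). All CS7KO libraries still lay above the other 3 CRE libraries. A stretch of 177 bases of the Smad9 transcript is nearly the same as sequence in transcripts of 1104 other genes, at 90% identity or more over at least 100 bases, and how reads from such a stretch were counted is not stated, so its level is uncertain to that extent.

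On the TGF-beta side, Smad2 had nearly the same mean in both genotypes. It had 20.7, 17.7, 18.4 and 18.2 CPM in CS7KO 1 to 4, against 20.9, 16.3, 17.2 and 22.6 CPM in CRE 1, 2, 3 and 5. The CS7KO values lay inside the CRE range, with means of 18.8 ± 1.34 CPM in CS7KO hearts and 19.3 ± 2.99 CPM in CRE hearts. The log2 fold change was -0.03 (SE 0.24, adjusted p 0.973) and its sign turned with library totals as the only scaling (log2 0.29). The 95% interval of the fold change was 0.678 to 1.41.

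Smad3, the receptor Smad most closely tied to cardiac fibrosis in mouse work, likewise overlapped between the groups, apart from a single zero. It had 12.4, 11.4, 14.1 and 8.95 CPM in CS7KO 1 to 4, against 0, 12.8, 15.8 and 13.8 CPM in CRE 1, 2, 3 and 5. The counts were 294, 266, 656 and 160 in CS7KO libraries and 0, 316, 447 and 114 in CRE libraries. In CRE 1 a count of 0 allows up to 0.133 CPM, far under the 12.8 CPM of the lowest other CRE library. With all libraries the log2 fold change was 0.26 with an SE of 0.96 (adjusted p 0.942), and the 95% interval ran from -1.88 to 2.41 on the log2 scale. Without CRE 1 the CRE mean was 14.1 ± 1.56 CPM (n = 3), against 11.7 ± 2.14 CPM in CS7KO hearts (n = 4), and the log2 fold change was -0.22 (SE 0.26, adjusted p 0.727).

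The balance of the 2 receptor branches leaned toward the TGF-beta type in CS7KO hearts, by a small margin. Smad2 plus Smad3 over Smad1 plus Smad5 plus Smad9, per kilobase, was 0.431, 0.496, 0.458 and 0.440 in CS7KO 1 to 4, against 0.321, 0.413, 0.369 and 0.303 in CRE 1, 2, 3 and 5. The groups did not overlap, with means of 0.456 ± 0.0288 in CS7KO hearts and 0.351 ± 0.0495 in CRE hearts and a difference of 0.39 on the log2 scale, or 1.31-fold. CRE 1 lacks Smad3, which lowers its ratio, and CRE 5 lacks Smad9, which raises its ratio. In CRE 1 the numerator is Smad2 alone, at 2.38 CPM per kilobase. Smad3 had 2.30, 2.86 and 2.49 CPM per kilobase in CRE 2, 3 and 5. The place of CRE 1 below the CS7KO libraries thus depends on that zero. In the denominator, Smad1 had a mean of 3.06 CPM per kilobase in CS7KO hearts and 5.28 in CRE hearts. Without both libraries the log2 difference was 0.22. This ratio too was picked with earlier results of these data known, and it has no p. In every library the ratio was below 1, with the BMP-type Smads above the TGF-beta-type Smads.

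Smad4, the partner that both branches share, was the most abundant Smad per kilobase and did not separate the groups. It had 50.6, 38.3, 39.7 and 41.7 CPM in CS7KO 1 to 4, against 30.4, 41.8, 40.0 and 49.8 CPM in CRE 1, 2, 3 and 5. The means were 42.6 ± 5.51 CPM in CS7KO hearts and 40.5 ± 8.00 CPM in CRE hearts, with a log2 fold change of 0.08 (SE 0.24, adjusted p 0.929) and a 95% interval of the fold change from 0.725 to 1.54. The highest and lowest values, in CS7KO 1 and CRE 1, both came from hearts labelled male.

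**Figure D3:**
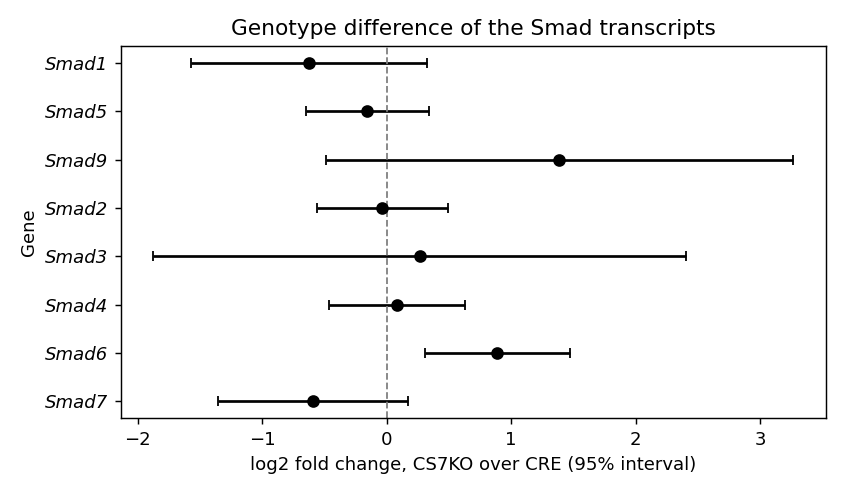
Log2 fold change of each Smad, CS7KO over CRE, with its 95% interval from the edgeR fit on 8 libraries. Members are ordered from the BMP-type receptor Smads at the top to the inhibitory Smads at the bottom; the Smad6 interval (0.31 to 1.47) lies above 0, and the widest intervals are those of Smad3 and Smad9, which have 1 library at 0 each.

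Compared per kilobase over all 8 libraries, the levels ran in the order Smad4 (11.2 ± 1.74 CPM per kilobase), Smad5 (5.90 ± 0.821), Smad7 (5.17 ± 2.34), Smad6 (4.95 ± 1.85), Smad1 (4.17 ± 2.45), Smad2 (2.17 ± 0.246), Smad3 (2.01 ± 0.891) and Smad9 (0.511 ± 0.299). Smad4 stood apart at the top and Smad9 at the bottom. Each pair of neighbours from Smad5 down to Smad3 differed by less than the larger SD of the pair. The order inside the middle group differed between the genotypes: in CS7KO hearts Smad6 (6.40 ± 1.22 CPM per kilobase) came next after Smad4 and Smad7 (4.05 ± 1.58) came after Smad5, whereas in CRE hearts Smad7 (6.29 ± 2.62) came next after Smad4 and Smad6 (3.50 ± 0.945) came after Smad1.

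As a share of the summed per-kilobase level of all 8 Smads, Smad4 made up 32.5 ± 3.93% in CS7KO hearts and 30.4 ± 3.23% in CRE hearts. Smad6 made up 13.6%, 19.8%, 20.4% and 18.7% in CS7KO 1 to 4, against 10.1%, 9.61%, 9.18% and 9.51% in CRE 1, 2, 3 and 5. The CRE shares of Smad6 were nearly equal, with an SD of 0.400 percentage points. Smad7 made up 11.2 ± 3.13% in CS7KO hearts and 16.8 ± 2.26% in CRE hearts, and Smad1 8.49 ± 1.67% in CS7KO hearts and 13.4 ± 4.76% in CRE hearts. Smad5 held 15.8 ± 1.53% in CS7KO hearts and 17.6 ± 2.35% in CRE hearts, and Smad2, Smad3 and Smad9 together filled the rest. The summed level itself was 38.5, 31.8, 39.7 and 32.0 CPM per kilobase in CS7KO libraries, inside the CRE range of 24.3 to 50.02. The 8 genes took 0.0170% to 0.0226% of all counts in CS7KO libraries and 0.0131% to 0.0221% in CRE libraries.

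**Figure D4:**
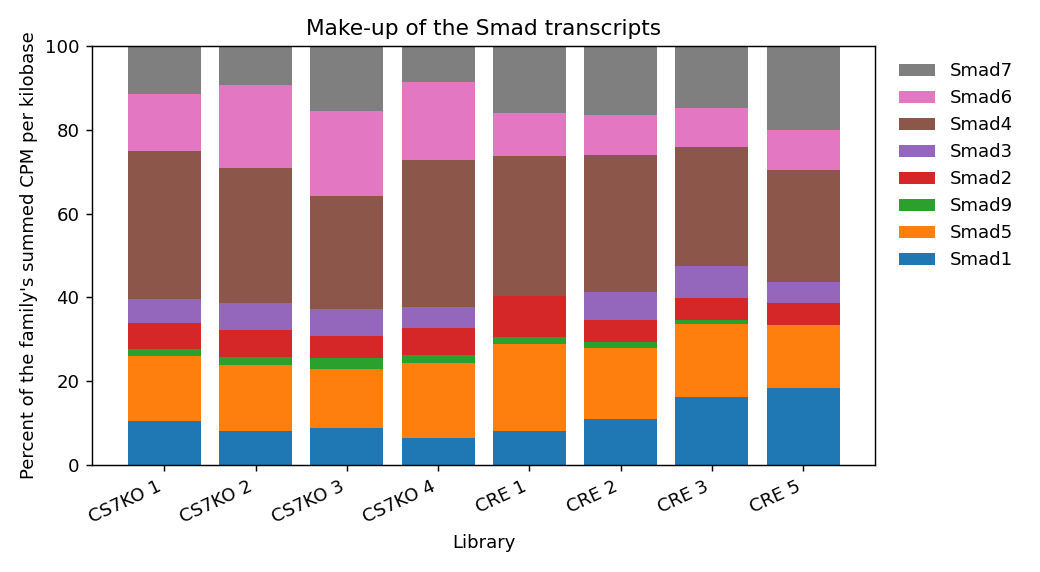
Share of each Smad in the summed per-kilobase level of the family, in percent, stacked for every library with the CS7KO libraries left of the CRE libraries. Smad4 is the largest piece in each library, Smad6 is wider in all CS7KO libraries (13.6% to 20.4%) than in the CRE libraries (9.18% to 10.1%), and the pieces of Smad3 in CRE 1 and Smad9 in CRE 5 are missing.

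In the deposited coordinates, whose build could not be settled, Smad7 lies on chromosome 18 (75500600 to 75529006, plus strand), as do Smad2 (76374651 to 76444034, plus) and Smad4 (73772080 to 73836851, minus). Smad3 (63554049 to 63665276) and Smad6 (63860358 to 63929341) both lie on the minus strand of chromosome 9. Smad1 lies on chromosome 8 (80065024 to 80126147, minus), Smad5 on chromosome 13 (56850823 to 56890190, plus) and Smad9 on chromosome 3 (54663003 to 54708678, plus). With all libraries, Smad6 and Smad3 both had the higher mean in CS7KO hearts (11.7 against 10.6 CPM for Smad3). Without CRE 1 the Smad3 mean was lower in CS7KO hearts. Neither gene passed an adjusted p under 0.05. Smad1, Smad2, Smad3, Smad6 and Smad9 overlap no other gene of the table, and the highest count of any gene overlapping Smad4 or Smad5 was at most 0.541% of the highest count of that Smad. No 2 Smads shared an alignment of at least 100 bases at 90% identity or more. The highest identity was 83.0%, over 100 bases between Smad3 and Smad9. The most alike single alignment of Smad1 and Smad5 had 82.7% identity over 312 bases, and that of Smad6 and Smad7 had 74.1% over 135 bases.

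Between hearts labelled female and male, with genotype in the fit, 0 of 16002 genes passed an adjusted p under 0.05 in edgeR (0% called; 427 had an unadjusted p under 0.05, and DESeq2 called 0). No Smad passed. The labels were thus not borne out by any tested gene at this threshold, by edgeR or by DESeq2. Whether they match the sex of the hearts was not tested. The differences given here, and the interaction with genotype, are therefore differences between labels only. The log2 difference, female over male, was 0.60 for Smad1 (SE 0.43), 0.49 for Smad7 (SE 0.34) and 0.40 for Smad6 (SE 0.26), each with an adjusted p of 0.823. Smad3, with its zero in CRE 1, a heart labelled male, had 0.58 (SE 0.96). The other Smads had between -0.39 (Smad9) and 0.20 (Smad5). The interaction of genotype and labelled sex likewise passed for 0% of genes in edgeR, with 7.08% at an unadjusted p under 0.05, and DESeq2 called 44. Smad1 was the member with the smallest p there. In hearts labelled female its mean was 17.6 CPM in CS7KO and 48.1 CPM in CRE. In hearts labelled male it was 20.7 CPM in CS7KO and 18.0 CPM in CRE. The genotype difference in the first minus that in the second was -1.64 on the log2 scale (SE 0.65, unadjusted p 0.0313, adjusted p 0.667). The 2 CRE hearts labelled female are also the libraries with 41.1% and 69.8% mitochondrial counts. Labelled sex and that share thus cannot be told apart within the CRE group.

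Genes that feed into or follow the Smads were read from 7 lists, with 128 tested genes in all. None passed by edgeR. An unadjusted p under 0.05 was found for 22, against 12.6% of all genes, and 5 passed by DESeq2, against 4.1% of all genes, so the DESeq2 count is near the background. Of all 16002 genes, 51.9% had a higher and 48.1% a lower value in CS7KO hearts, and their median log2 fold change was 0.03. The lists were written with earlier results of these data known, and their counts are a description.

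Of the TGF-beta and activin ligands and receptors, 9 of 16 tested genes had higher values in CS7KO hearts and 7 lower, with a median of 0.11. The smallest p belonged to Tgfb2, a TGF-beta ligand, with 45.7 ± 17.8 CPM in CS7KO hearts and 23.1 ± 12.5 CPM in CRE hearts (log2 0.99, SE 0.35, adjusted p 0.313). Next came Inhbb, which encodes an activin subunit (log2 1.73, SE 0.72, adjusted p 0.367). Inhbb had 19.0, 3.42, 35.9 and 3.81 CPM in CS7KO 1 to 4, against 1.77, 5.69, 5.42 and 5.44 CPM in CRE 1, 2, 3 and 5. Its higher mean thus came from CS7KO 1 and CS7KO 3, and the other CS7KO values lay inside the CRE range. Of the BMP ligands, receptors and antagonists, 9 of 19 were higher and 10 lower, with a median of -0.16. Acvrl1, the endothelial type I receptor ALK1, had 38.5 ± 7.79 CPM in CS7KO hearts and 72.6 ± 23.0 CPM in CRE hearts (log2 -0.90, SE 0.31, adjusted p 0.309). Rgmb, a BMP co-receptor, followed (log2 -0.62, SE 0.26, adjusted p 0.367). The endothelial marker sum was also lower in CS7KO hearts, and CRE 5 was highest in it and in Acvrl1. Yet at similar sums of 1433 and 1419 CPM, CRE 1 had 78.4 CPM of Acvrl1 and CS7KO 3 had 43.0 CPM. The part of endothelial RNA in the Acvrl1 difference was not tested. Both medians turned sign when 1 library was left out, to between -0.10 and 0.21 for the first list and between -0.25 and 0.20 for the second. CS7KO 1, CS7KO 2 and CRE 1 did so for the first list, and CS7KO 4 and CRE 3 for the second. Without both CRE 1 and CRE 5, 6 of 16 genes of the first list and 5 of 19 of the second were higher.

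Of the ubiquitin ligases and deubiquitinases that act on Smads and their receptors, 13 of 17 were higher and 4 lower, with a median of 0.20 that was 0.41 without CRE 2 and 0.090 without CS7KO 1. They were led by the deubiquitinases Usp15, with 81.1 CPM in CS7KO hearts and 51.6 CPM in CRE hearts (log2 0.67, SE 0.26, adjusted p 0.344), and Usp9x (log2 1.47, SE 0.59, adjusted p 0.360). The anchors, phosphatases, importers and exporters divided 9 higher to 8 lower, with a median of 0.0071 (-0.089 to 0.17 with each library left out, below 0 without CS7KO 1 or CRE 3), and 14 were higher without both CRE 1 and CRE 5. The nuclear importer Ipo7 (log2 0.99, SE 0.34, adjusted p 0.303) and Ppm1a, a phosphatase reported to act on receptor Smads (181 CPM in CS7KO hearts, 111 CPM in CRE hearts, adjusted p 0.313), had the smallest p. Among corepressors and DNA-binding partners, 9 of 24 were higher and 15 lower (median -0.08, and 0.010 without CS7KO 4 or 0.029 without CRE 5), while 16 were higher without both CRE 3 and CRE 5. The 2 that DESeq2 called are paralogs: Tob2 had 68.5 ± 3.72 CPM in CS7KO hearts and 31.1 ± 7.98 CPM in CRE hearts, and Tob1 had 69.8 ± 17.1 CPM in CS7KO hearts and 29.8 ± 11.0 CPM in CRE hearts. Their adjusted p was 0.00411 and 0.0111 by DESeq2 and 0.262 and 0.280 by edgeR. Tob proteins restrain cell growth, and Tob1 is known in mouse bone cells as a repressor of BMP-activated Smads.

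Most target genes of the BMP branch had lower values in CS7KO hearts, though none passed the test. Of 13 tested BMP-Smad targets, 11 had lower values in CS7KO hearts and 2 higher, with a median of -0.56. The median lay between -0.68 and -0.42 with each library left out, and 10 of 13 were lower, with a median of -0.38, without both CRE 3 and CRE 5. Id1, an inhibitor of basic helix-loop-helix factors, had 30.0, 37.3, 36.1 and 37.9 CPM in CS7KO 1 to 4, against 55.2, 31.6, 107 and 168 CPM in CRE 1, 2, 3 and 5 (log2 -1.13, SE 0.38, adjusted p 0.301). For Id1, CRE 2 lay among the CS7KO values. The related Id3 had 49.0 ± 10.2 CPM in CS7KO hearts and 102 ± 43.7 CPM in CRE hearts (log2 -1.05, SE 0.35, adjusted p 0.301). The high Id1 values came from CRE 3 and CRE 5, the libraries with the highest endothelial marker sums of 2827 and 3362 CPM. Id3 did not follow these sums throughout, with 123, 52.5, 81.4 and 151 CPM in CRE 1, 2, 3 and 5. CRE 1, with an endothelial sum of 1433 CPM, was thus above CRE 3 for Id3. For Id3 too, CRE 2 lay among the CS7KO values. Endothelium is a major site of Id1 expression. The part of endothelial RNA in the values of Id1 and of the other targets in this list was not tested. Smad6 and Smad7, themselves known BMP and TGF-beta targets, are not in these lists.

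Of 25 TGF-beta-Smad2/3 targets, 17 had higher values in CS7KO hearts and 8 lower, with a median of 0.11 that was -0.066 without CS7KO 3. Without CRE 3 and CRE 5, 13 were higher and 12 lower. Comp, a matrix protein, had 140 ± 27.1 CPM in CS7KO hearts and 66.8 ± 43.5 CPM in CRE hearts (log2 1.31, SE 0.37, adjusted p 0.291 by edgeR and 0.0196 by DESeq2). DESeq2 also called Ccn2, a matricellular growth factor, with an adjusted p of 0.0189. The fibroblast markers, Pdgfra, Dcn and Lum among them, summed to 1962 to 4119 CPM in CS7KO libraries and 1538 to 5670 CPM in CRE libraries, and 3 of 10 had the higher mean in CS7KO hearts.

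**Figure D5:**
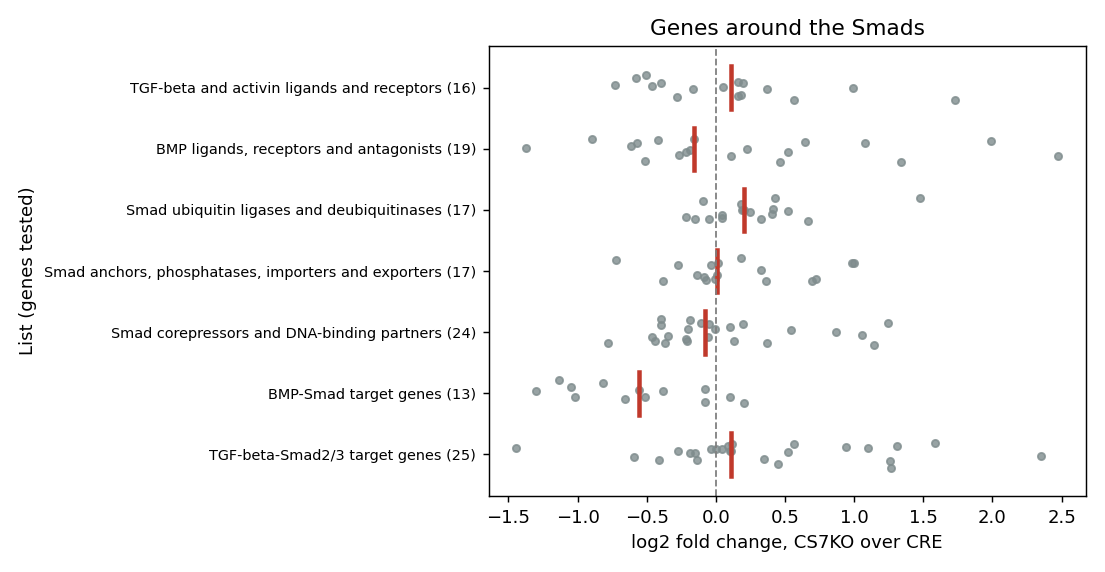
Log2 fold change, CS7KO over CRE, of every tested gene in the 7 lists around the Smads (grey points), with the median of each list as a red line and the number of genes tested in brackets. The BMP-Smad targets have a median of -0.56, with 11 of 13 genes below 0, and the other medians lie between -0.16 and 0.20; no gene passed an adjusted p under 0.05 in edgeR's test.

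Among the other cells a heart can hold, the cardiomyocyte markers summed to 52960 to 63853 CPM in CS7KO libraries and to 21715 to 66312 CPM in CRE libraries, and 9 of 12 had the higher mean in CS7KO hearts. The macrophage and monocyte markers summed to 598 to 649 CPM in CS7KO libraries and to 472 to 1945 CPM in CRE libraries (1 of 10 with the higher mean in CS7KO hearts). Those of smooth muscle cells and pericytes summed to 823 to 1235 CPM in CS7KO libraries and to 941 to 1576 CPM in CRE libraries (1 of 10), with Tagln at no more than 2.18 CPM and at 0 in 1 library. Lymphocyte markers summed to 2.40 to 8.24 CPM in CS7KO libraries and to 7.11 to 13.3 CPM in CRE libraries, and epicardial markers to 13.8 to 35.2 CPM in CS7KO libraries and to 13.9 to 47.1 CPM in CRE libraries. Erythroid markers summed to 930 to 2933 CPM in CS7KO libraries and to 1006 to 1916 CPM in CRE libraries. The atrial list summed to 2080 to 2774 CPM in CS7KO libraries and to 160 to 1881 CPM in CRE libraries. Nppa, which pressure-loaded ventricles also express, made up most of it, with 113 to 2717 CPM over the libraries. That sum is the one that separated the groups in the direction of Smad6, and its part in the Smad6 result was not tested.

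The genes whose profile over the 8 libraries was most like that of a Smad were found by the SD of the log2 ratio to it, among 12693 protein-coding genes. The measure was read for the 6 Smads with at least 10 counts in every library, which leaves out Smad3 and Smad9. Smad1 was followed most closely by Ripk1 (SD 0.104) and Klf3 (0.125), against a median of 0.929 over all these genes. Smad2 was nearest to Sec24c (0.0787) and Hnrnpr (0.0839), Smad4 to Ppp2r5e (0.0618) and Azi2 (0.0696), and Smad5 to Wipi2 (0.0730) and Serinc5 (0.0752). Smad6 was nearest to Wdpcp (0.191) and Mettl27 (0.215), and Smad7 to Dlc1 (0.198) and Ppp1r18 (0.202). This SD also depends on how much a Smad itself varies: the SD of its own log2 level was 0.160 for Smad2, 0.193 for Smad5, 0.231 for Smad4, 0.564 for Smad6, 0.611 for Smad7 and 0.761 for Smad1, so the values are not compared between Smads.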

How the data were processed

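Polyadenylated RNA of 8 whole hearts was sequenced, per the labels' protocols. The authors deposited raw read counts per gene for all libraries, with the gene's symbol, length and coordinates. Per the submitters' processing notes, HTSeq 0.6.1, TopHat2 2.0, Cufflinks 2.1.1 and CASAVA were used with GRCm38.p6 and mm10; the role of each, strand and the handling of reads matching several genes are not stated in the sources used here. The deposited coordinates equal those of GENCODE M21 for 2.83% of genes and for 0 of the 8 Smads, so they are printed as deposited with the build unsettled, and RefSeq windows carry their own GRCm38.p6 coordinates.

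Genes were kept by filterByExpr (minimum count 10, total 15), scaled by TMM and tested with edgeR 4.0.16 in R 4.3.3 (robust quasi-likelihood fit, genotype and labelled sex, Benjamini-Hochberg adjustment over 16002 genes, threshold 0.05). Fold changes are CS7KO over CRE, and intervals are 95%. CPM use TMM-scaled totals; levels between genes are divided by deposited gene length. DESeq2 1.42.0, limma-voom (limma 3.58.1), other scalings and filters, a replicate block and libraries left out were alternatives. DESeq2 gave no adjusted p for 3723 genes. Similar transcripts were found with blastn 2.17.0. The edgeR step was tested on simulated counts. At these depths 3 counts came to 0.0643 to 0.363 CPM, and such floors cover counting error only. The design calls samples independent, but no source used here says how hearts were drawn from litters.

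The Smads, the 7 pathway lists, 9 marker lists and ratios were chosen with earlier results of these data known. Named genes are the 8 Smads; in each pathway list the genes called, or else the 2 with the smallest p; the first 3 markers of each cell type; genes overlapping a Smad; and for each Smad the 2 genes of steadiest ratio to it. A gene that this rule names is not reported here. Ccn2, Nppa and Gm20544 were named after their values were seen.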

Additional observations from a re-analysis of the deposited data

Results flagged for a closer look

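Smad9 in CS7KO 3 was 5.56 CPM, against 3.36 to 3.37 CPM in the other 3 CS7KO libraries, and its gap to the nearest of them took up 0.992 of the group's range, above Dixon's 95% critical value for 4 samples. It was the 1 sample picked out among 22 groups examined, and chance picks out about 1 group in 20. CS7KO 3 was also the deepest library, with 40181492 counts.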

How the results depend on the processing

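No Smad passed an adjusted p under 0.05 between the genotypes under any of 19 alternatives. Over them the Smad6 log2 fold change lay between 0.82 and 1.22 (adjusted p 0.0514 to 0.923), Smad7 between -0.81 and -0.21, and Smad9 between 0.53 and 1.80. Among the log2 values of single Smads, 24 turned sign: Smad2 was 0.29 with library totals alone, 0.0080 without mitochondrial genes, 0.076 with no filter, 0.068 with the replicate block, 0.22 without CRE 1 and CRE 5, 3.0e-04 without CRE 3 and CRE 5, and -0.11 to 0.098 with each library left out. Smad5 was 0.14 with library totals alone, Smad3 -0.23 without CRE 1 and CRE 5 and -0.22 to 1.14 with each library left out, Smad1 0.15 without CRE 3 and CRE 5, and Smad4 -0.046 to 0.22 with each library left out. Library totals alone shifted the median of all genes by 0.277, close to the Smad2 value and above that of Smad5, and no filter shifted it by 0.103. For labelled sex, Smad2 was -0.025 by DESeq2 and -0.023 with its size factors, and with each library left out Smad2 was -0.17 to 0.077, Smad3 -0.050 to 1.45, Smad4 -0.14 to 0.23 and Smad9 -0.80 to 0.039. Genes called by genotype numbered 6, against 503 by DESeq2, 338 with no filter, 2 with the replicate block, 16 without CRE 1 and CRE 5, 3 without CRE 3 and CRE 5, and 3 (without CS7KO 3) to 14 (without CRE 1) with each library left out. DESeq2 called 44 genes by interaction, against 0. The Smad2 plus Smad3 over Smad1 plus Smad5 plus Smad9 difference was 0.22 without CRE 1 and CRE 5, a choice made after seeing the data, as was leaving out 2 libraries for the lists. The cause of these shifts was not tested. Same-numbered libraries correlated at 0.042, -0.088 and 0.35 in their deviations from the group means, so the numbers were not taken as pairs; CS7KO 1 and CS7KO 2 correlated best with another number, and Smad6 was 1.08 (adjusted p 0.923) under the block. Depth limits Smad9 most, at 80 counts or fewer in 7 of 8 libraries.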
